A study of Mus musculus with 6 samples.

Results

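The proteasome is the barrel-shaped protease that degrades most short-lived and ubiquitin-tagged proteins of the cell. Its genes were followed in messages bound to ribosomes of mouse cortical pyramidal cells. The members were all genes whose single symbol in the array's annotation begins with Psm, a letter from a to g and a digit. That pattern matched 49 symbols, each represented by its probe set of highest mean over the 6 arrays, and 46 reached a mean intensity of 50 in at least 1 treatment group, of 10830 genes that did so in all. Psmc3ip and Psme3ip1 match the pattern but are named after a subunit they bind and are not proteasome genes, so they were set apart, which left 44. Of these, 16 encode the core (Psma, Psmb), 20 the regulatory particle (Psmc, Psmd), and 8 the activators (Psme), the inhibitor (Psmf) and the assembly chaperones (Psmg). Symbols alone set the groups, so chaperones of base assembly such as Psmd5 and Psmd10 count with the regulatory particle. The rule used the level of a gene and no difference between samples.

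A core particle is a stack of rings, with outer rings of alpha subunits that gate the entrance and inner rings of beta subunits that hold the cutting sites. The regulatory particle caps the core. Its base has a ring of ATPases that unfold the substrate, and its lid removes ubiquitin. Other caps, the PA28 family and Psme4, open the core without needing ubiquitin, and interferon exchanges the catalytic beta subunits for inducible ones. In neurons the proteasome also turns over synaptic proteins.

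The 6 Affymetrix arrays carried RNA from translating ribosome affinity purification, which pulls down tagged ribosomes with their messages. The tag was driven by the Glt25d2 regulatory region (the gene is now Colgalt2) in the DU9 line, on a background backcrossed 3 to 5 generations from FVB to C57BL/6, in the cortex of every animal, controls included. The fluoxetine-titled mice (FLX, 3 arrays) drank 0.167 mg/ml of the antidepressant fluoxetine in 1% saccharine for 15 to 18 days, and the vehicle-titled mice (VEH, 3 arrays) drank 1% saccharine alone. The labels give neither the age of the mice nor the number pooled per purification, so p-values measure the spread between purifications. Each sample's short description names the treatment opposite to its title, source and treatment fields. Groups follow the titles here, and if the descriptions were right every FLX minus VEH difference would change sign.

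The defining gene of the labelled cells, Colgalt2, had intensities of 986, 709 and 719 in FLX and 891, 828 and 918 in VEH arrays, and 13 of 14 layer 5 markers were kept. Messages of other cells were present too, among them the interneuron gene Gad1 at 13696 to 19982. Of 9 vessel markers 5 were kept, among them the endothelial gene Cldn5 at 317 to 721, while the endothelial gene Pecam1 stayed at 10.6 or less. The hemoglobin gene Hba-a1 stayed at 6.07 or less. Median intensity was 23.03 to 23.45 over the arrays. The arrays with replicate number 1, FLX 1 and VEH 1, stood apart from the other 4 on the first principal component, which held 59.99% of the variance. No label says what the numbers stand for. Probe sets differ in how brightly they report a message, so levels are compared within a gene only. In whole-tissue purifications such as these, fewer labelled cells and less message per cell cannot be told apart.

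The heat map of the 44 genes by array introduces both comparisons.

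**Figure D1:**
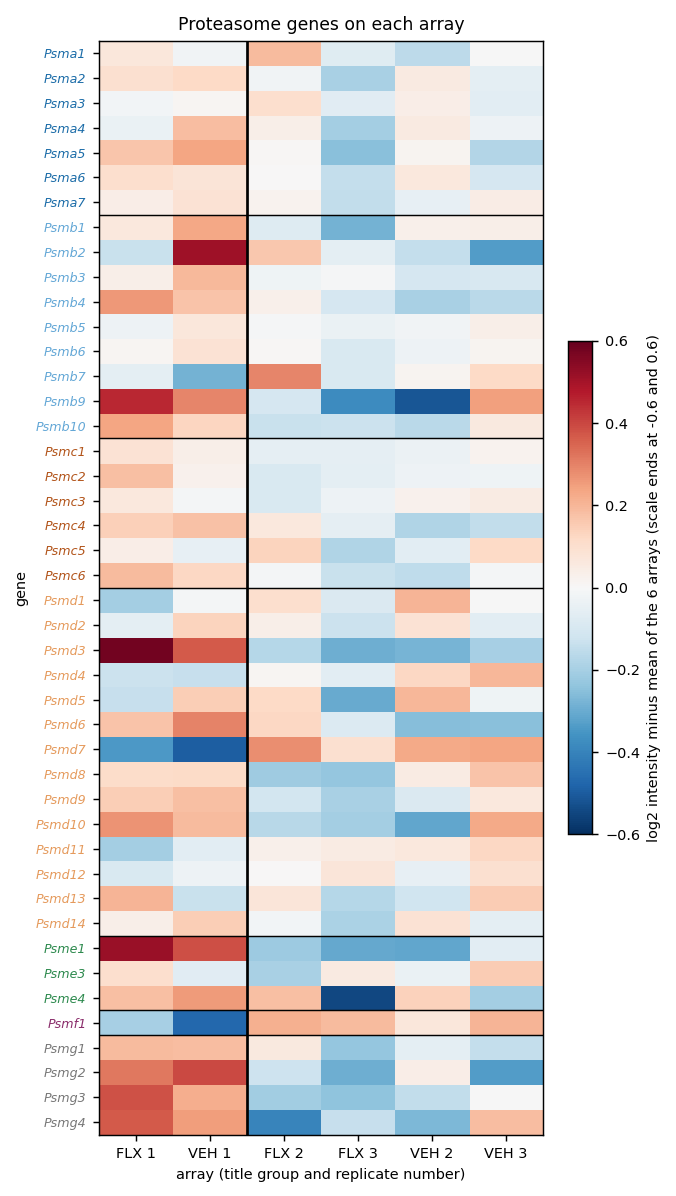
Each row is a proteasome gene and each column an array, the 2 arrays numbered 1 on the left; colour is the log2 intensity minus the gene's mean over the 6 arrays. Row groups from the top are core alpha, core beta, base ATPases, other regulatory particle, activators, inhibitor and assembly chaperones; Psmd3, Psme1 and the Psmg genes are red and Psmd7 and Psmf1 blue on arrays numbered 1.

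Proteasome messages differed little between FLX and VEH arrays. None of the 44 genes passed an adjusted p of 0.05 in limma, and none reached an unadjusted p under 0.05, where 0% of probe sets passed after adjustment and 0.591% of genes (0.634% of probe sets) had such an unadjusted p. The median log2 difference (FLX minus VEH) was -0.023 over the core and -0.027 over the regulatory particle, against -0.0068 over all genes. The 95% confidence interval of the difference lay within 2-fold in either direction for all 44, and within 1.5-fold for 36 (81.8%), against 66.0% of all genes. In no member did the FLX and VEH arrays separate without overlap, as they did for 1.63% of genes upward and 1.98% downward.

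Within replicate numbers the pairs did not move alike. The median difference of the 44 genes was 0.0012 in pair 1, 0.034 in pair 2 and -0.10 in pair 3, against -0.00081 over all genes in pair 3. On the log2 scale, the members' median deviation from the 6-array means was -0.13 on FLX array 3 and -0.0023 on VEH array 3. VEH array 3, though not low in the members, was low in the marker lists of other cells, glial or not. Its median deviation from the 6-array means on the log2 scale was -0.59 for astrocytes, -0.59 for oligodendrocytes, -0.69 for their precursors, -1.01 for microglia, -0.47 for interneurons and -0.50 for vessels. Single markers went the other way, among them the endothelial gene Cldn5 at 721 and Aif1 of the microglia list at 99.0. Both were highest of the 6 arrays on VEH array 3. The part of other cells in the proteasome values was not tested. Of the 44 genes, 11 (25.0%) were lower in FLX in all 3 pairs, where 13.1% of all genes were, and 1 (2.27%) was higher in all 3, where 10.9% were. The 11 were Psma2, Psma4, Psma5 and Psmb1 of the core and Psmd1, Psmd2, Psmd5, Psmd8, Psmd9, Psmd11 and Psmd14 of the regulatory particle, and the 1 was Psmb4. A fit in limma that took the pairing in as a replicate block also called none of the 44 and gave none an unadjusted p under 0.05, where 3.41% of genes and 4.02% of probe sets had one.

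The largest treatment differences were all below 1.2-fold and belonged to genes of the core and regulatory particle groups and to the inhibitor. Psmd8, a lid subunit, had intensities of 2862, 2285 and 2253 in FLX and 2867, 2741 and 2983 in VEH arrays 1, 2 and 3, a log2 difference of -0.22 ± 0.14 (SE, n = 3 each). The arrays numbered 1 were alike, and the gap came from numbers 2 and 3. Psmd5, a chaperone of base assembly, had 705, 843 and 630 in FLX and 860, 891 and 762 in VEH arrays, a difference of -0.21 ± 0.15. Psmb1, a beta subunit without a cutting site of its own, had 6952, 6305 and 5477 in FLX and 7814, 6805 and 6818 in VEH arrays, a difference of -0.20 ± 0.14. The FLX array was the lower of each pair, yet the groups overlapped in both genes.

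In the other direction, Psmd6 of the lid had 10513, 10189 and 8836 in FLX and 11469, 7818 and 7844 in VEH arrays, a log2 difference of 0.14 ± 0.19. VEH array 1 was the highest of the 6. Psmf1, which encodes the proteasome inhibitor PI31, had 801, 1064 and 1046 in FLX and 662, 962 and 1057 in VEH arrays, a difference of 0.14 ± 0.22. Psmb4, another beta subunit without a cutting site, had 32490, 27678 and 25280 in FLX and 30550, 23673 and 24231 in VEH arrays, a difference of 0.13 ± 0.16. For Psmf1 and Psmb4 a second probe set gave the opposite sign, with differences of -0.083 and -0.12.

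**Figure D2:**
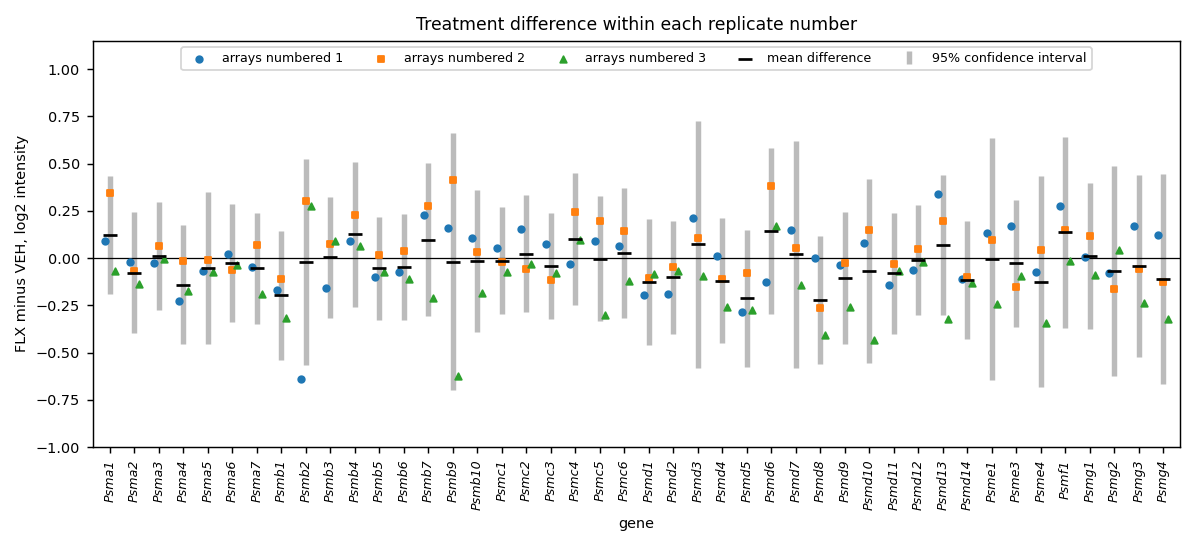
FLX minus VEH log2 intensity for each proteasome gene: coloured points are the 3 pairs with equal replicate numbers, black dashes their mean and grey bars its 95% confidence interval from limma. Every grey bar crosses 0, and the widest scatter of pairs belongs to Psmb9 and Psmb2.

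Psmb2, also a beta subunit, stood out for the spread of its pairs. It had 719, 880 and 755 in FLX and 1120, 713 and 624 in VEH arrays, so that FLX lay 0.64 below VEH on the log2 scale in pair 1 and 0.30 and 0.28 above it in pairs 2 and 3. VEH array 1 alone was high. The number 1 minus others difference was thus -0.18 in FLX and 0.75 in VEH arrays, and the test of that contrast gave -0.93 with an unadjusted p of 0.0149 in limma. It did not pass after adjustment over all probe sets (adjusted p = 1.00), nor did that of any other member, where 0% of probe sets passed. Psmb2 was the 1 member with an unadjusted p under 0.05 there, where 2.55% of genes had one.

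Over all genes, the arrays numbered 1 differed from the other 4 far more than the treatments did. This comparison was chosen with earlier results of these data known, so its p-values are not those of a split fixed in advance. In limma with a treatment term, 5 of 44 members (11.4%) passed an adjusted p of 0.05, where 12.8% of all 10830 genes did, so the share was near the background. Psmd3, Psme1 and Psmg2 were higher on the arrays numbered 1, where 5.92% of all genes were, and Psmd7 and Psmf1 lower, where 6.86% were. An unadjusted p under 0.05 was reached by 10 members and by 30.2% of all genes. None of the 16 core genes passed, although Psmb4 did with an intensity trend in the fit (adjusted p = 0.0121) and Psmb9 without VEH array 3 (adjusted p = 0.0141). All 5 calls were lost when either FLX array 1 or VEH array 1 was left out, which leaves a single array numbered 1.

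Psmd3, a scaffold subunit of the lid, had intensities of 2484 and 2148 on FLX array 1 and VEH array 1, against 1478 and 1357 on FLX arrays 2 and 3 and 1373 and 1450 on VEH arrays 2 and 3. Both arrays numbered 1 lay above all others. The log2 difference was 0.71 ± 0.12 (SE, 2 arrays against 4), 1.63-fold, with an adjusted p of 0.0104 in limma. Psmd7, a lid subunit that pairs with the deubiquitinase Psmd14, had 959 and 866 on arrays numbered 1, against 1481 and 1302 on the other FLX and 1429 and 1436 on the other VEH arrays. It lay below all others, with a difference of -0.63 ± 0.12 and an adjusted p of 0.0165. These subunits of the same lid thus moved in opposite directions. Both calls held without any single array of the other 4, and no other kept probe set measured either gene.

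Psme1, the alpha subunit of the interferon-induced PA28 activator, had 845 and 770 on arrays numbered 1, against 508 and 476 on the other FLX and 474 and 564 on the other VEH arrays. The difference was 0.68 ± 0.13, 1.60-fold, with an adjusted p of 0.0158. Without FLX array 3 the adjusted p was 0.0517. The 250 bases before its RefSeq start are shown with those of Psmf1, which differed the other way, and of Psmb5, which differed by 0.027. They were read from GRCm38.p6 and printed in the direction of transcription, at chr14:55578244-55578493 (plus strand) for Psme1, chr2:151741311-151741560 (minus strand) for Psmf1 and chr14:54617996-54618245 (minus strand) for Psmb5. The RefSeq record of Psmf1 extends upstream of the start used for its window. Capitals mark matches to the motifs named further on.
Psme1: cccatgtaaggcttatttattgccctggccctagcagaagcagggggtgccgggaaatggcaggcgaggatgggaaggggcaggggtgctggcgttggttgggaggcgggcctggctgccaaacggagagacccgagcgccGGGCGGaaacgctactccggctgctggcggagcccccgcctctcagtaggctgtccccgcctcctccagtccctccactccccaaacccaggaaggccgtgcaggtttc
Psmf1: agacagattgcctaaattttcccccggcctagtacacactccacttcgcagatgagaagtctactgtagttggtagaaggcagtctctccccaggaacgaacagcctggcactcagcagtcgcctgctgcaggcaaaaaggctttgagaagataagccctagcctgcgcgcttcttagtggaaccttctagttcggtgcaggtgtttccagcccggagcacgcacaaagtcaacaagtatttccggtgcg
Psmb5: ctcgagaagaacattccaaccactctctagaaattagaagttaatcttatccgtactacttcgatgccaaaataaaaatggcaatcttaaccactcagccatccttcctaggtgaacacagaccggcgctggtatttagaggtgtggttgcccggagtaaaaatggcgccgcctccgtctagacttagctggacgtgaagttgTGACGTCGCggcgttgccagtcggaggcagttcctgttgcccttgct

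Psmf1 had 801 and 662 on arrays numbered 1, against 1064 and 1046 on the other FLX and 962 and 1057 on the other VEH arrays. The groups did not overlap, and the difference was -0.50 ± 0.12 with an adjusted p of 0.0325. The call rested on that probe set. The other kept probe sets of Psmf1 gave differences of 0.028 and 0.087, the first of them with 888 and 832 on arrays numbered 1, against 835 and 757 on the other FLX and 810 and 989 on the other VEH arrays. It was also lost without any single array except VEH array 3 (adjusted p from 0.0615 to 0.264), with no intensity filter (0.0502) and in the replicate block fit against number 2 (0.0567).

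Psmg2, a chaperone that helps the first alpha ring to form, had 1502 and 1590 on arrays numbered 1, against 1107 and 986 on the other FLX and 1240 and 959 on the other VEH arrays. The difference was 0.53 ± 0.14, 1.45-fold, with an adjusted p of 0.0450. A second probe set gave 0.48 (adjusted p = 0.0583). The call was lost without any single array except VEH array 2 (adjusted p from 0.0504 to 0.260), under quantile normalization (0.0504), with no intensity filter (0.100) and in the replicate block fit against number 2 (0.0778). The remaining Psmg chaperones lay the same way without passing. Psmg3 had 652 and 581 against 433 and 423 on FLX and 450 and 499 on VEH arrays, a difference of 0.45 ± 0.13 (adjusted p = 0.0550). Psmg4 had 247 and 227 against 145 and 173 on FLX and 158 and 217 on VEH arrays, a difference of 0.46 ± 0.17 (adjusted p = 0.109). Psmg1, the partner of Psmg2, had 478 and 476 against 437 and 357 on FLX and 403 and 380 on VEH arrays, a difference of 0.28 ± 0.13 (adjusted p = 0.183). All 4 Psmg chaperones thus had both arrays numbered 1 above the other 4, as 24.4% of all genes did.

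**Figure D3:**
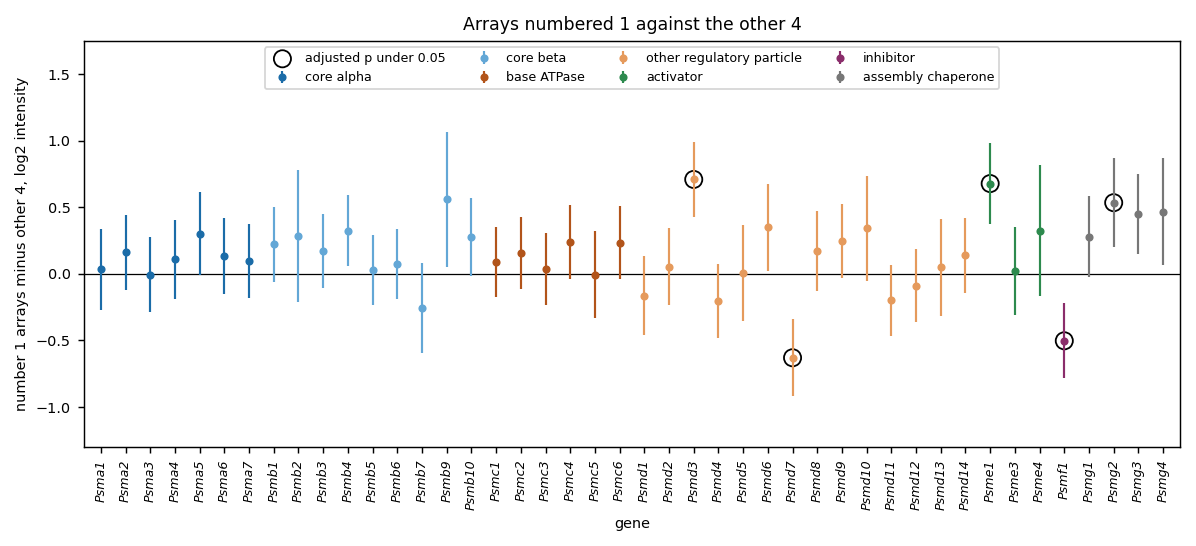
Log2 intensity on the arrays numbered 1 minus the other 4 for each proteasome gene, coloured by role, with 95% confidence intervals from limma; rings mark an adjusted p under 0.05. The rings are on Psmd3, Psmd7, Psme1, Psmf1 and Psmg2, and none is on a core subunit.

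Most of the remaining genes lay slightly higher on the arrays numbered 1. The difference was positive for 35 of 44 members (79.5%), against 54.5% of all genes. The median was 0.15 over the core and 0.072 over the regulatory particle, against 0.037 over all genes. Both arrays numbered 1 lay above the other 4 in 20 members (45.5%), where 24.4% of all genes did, and below them in 4 (9.09%), where 19.9% did. These counts describe the members beside the background and were not tested. The core median was 0.080 in FLX and 0.15 in VEH arrays, and that of the regulatory particle 0.14 in FLX and 0.049 in VEH arrays. For the activators, inhibitor and chaperones it was 0.44 in FLX and 0.29 in VEH arrays. Under quantile normalization the medians over both treatments were 0.098 for the core and 0.045 for the regulatory particle.

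Among the core genes, the alpha subunits differed by -0.0054 to 0.30. Psma5 had the largest difference, with 14620 and 15310 on arrays numbered 1, against 13070 and 10926 on the other FLX and 13175 and 11509 on the other VEH arrays, 0.30 ± 0.13 (adjusted p = 0.161). The catalytic subunit Psmb5, which cuts after hydrophobic residues, was the steadiest member, with 16114 and 17279 on arrays numbered 1, against 16392 and 16030 on the other FLX and 16229 and 16880 on the other VEH arrays. Its highest value was 1.08 times its lowest. Psmb6, which cuts after acidic residues, had 11151 and 11737 against 11104 and 10369 on FLX and 10815 and 11195 on VEH arrays, a difference of 0.074 ± 0.11. Psmb7, which cuts after basic residues, had 5043 and 4305 against 6430 and 4927 on FLX and 5311 and 5698 on VEH arrays, a difference of -0.26 ± 0.15 (adjusted p = 0.268). The FLX array 1 value of Psmb7 lay among those of the other 4 arrays, and none of the catalytic subunits passed the test.

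The inducible counterparts of the catalytic subunits were dim or close to the filter, apart from Psmb10. Psmb10 had 2525 and 2342 on arrays numbered 1, against 1953 and 1958 on the other FLX and 1912 and 2230 on the other VEH arrays, a difference of 0.28 ± 0.13 (adjusted p = 0.178). Psmb9 had 97.2 and 87.2 against 66.4 and 54.7 on FLX and 49.8 and 84.4 on VEH arrays, a difference of 0.56 ± 0.22 (adjusted p = 0.121), with the arrays numbered 1 on top by little. Psmb9 was the member just inside the intensity filter and Psmb8 the one just outside it, at 59.8, 41.1 and 43.7 in FLX and 38.5, 46.1 and 56.6 in VEH arrays. The thymus subunit Psmb11 and the testis subunit Psma8 stayed at 9.81 and 15.9 or less.

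Of the other named core genes, Psmb4 had the largest difference after Psmb9, 0.32 ± 0.12 (adjusted p = 0.0985), with both arrays numbered 1 above the rest at the values given for the treatments. Its second probe set gave -0.0091, with 13199 and 13910 on arrays numbered 1, against 13763 and 12294 on the other FLX and 14851 and 13760 on the other VEH arrays. The difference of Psmb2 was 0.28 ± 0.21, carried by VEH array 1.

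In the regulatory particle, the 6 ATPases of the base lay between -0.0078 (Psmc5) and 0.24 (Psmc4), and 4 of them had both arrays numbered 1 on top, as 24.4% of all genes did. A dimmer probe set of Psmc6 did pass the test, with 661 and 620 on arrays numbered 1, against 464 and 470 on the other FLX and 393 and 386 on the other VEH arrays, 0.58 ± 0.12 (adjusted p = 0.0169), where its brightest gave 0.23. Psmd14, which removes ubiquitin from the substrate, had 8948 and 9657 on arrays numbered 1, against 8621 and 7640 on the other FLX and 9248 and 8366 on the other VEH arrays, a difference of 0.14 ± 0.12. Psmd6 differed by 0.35 ± 0.14 (adjusted p = 0.132), 0.15 in FLX and 0.55 in VEH arrays. Psmd10, a chaperone of base assembly, had 485 and 459 against 359 and 349 on FLX and 324 and 472 on VEH arrays, 0.34 ± 0.17 (adjusted p = 0.206), and VEH array 3 lay between the arrays numbered 1. Psmd4, a ubiquitin receptor, and Psmd11, a lid subunit, had both arrays numbered 1 below the rest, with differences of -0.20 each (adjusted p = 0.283 and 0.263). A second probe set of Psmd4 gave the opposite sign, 0.20, and the further ones of Psmd11 gave -0.076, 0.0073 and -0.14.

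The nuclear activator subunit Psme3 depended on the probe set read. Its brightest had 1001 and 891 on arrays numbered 1, against 816 and 971 on the other FLX and 909 and 1038 on the other VEH arrays, a difference of 0.022 ± 0.14. Its second had 192 and 199 against 576 and 706 on FLX and 523 and 479 on VEH arrays, a difference of -1.53 ± 0.15 with an adjusted p of 0.00144. That was further from 0 than any first probe set of the 44, and it was singled out after its values were seen. Psme4, which encodes an activator that binds the core in the nucleus, had 704 and 741 against 705 and 426 on FLX and 684 and 539 on VEH arrays, 0.32 ± 0.21. A dim second probe set gave -0.91 (adjusted p = 0.00639) and another one 0.088. Over all members, 25 further probe sets of 18 genes were kept, of which 17 had the sign of the first and 8 the opposite one, and 2 of those 8, from Psme3 and Psme4, passed the test. The annotation gives no position of a probe set within its transcript, and whether they read different isoforms was not tested.

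**Figure D4:**
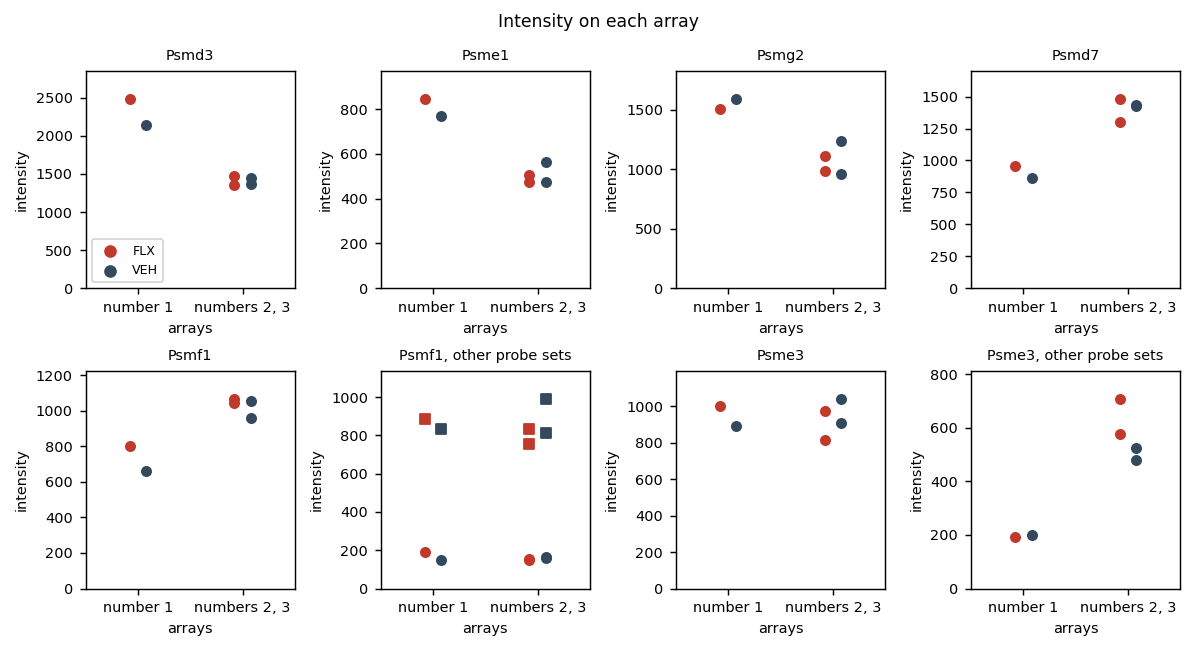
Intensity on each array for the 5 members with an adjusted p under 0.05 and for Psme3, with the other kept probe sets of Psmf1 and Psme3; red is FLX, dark blue VEH, circles and squares are different probe sets of 1 gene, and axes start at 0. The arrays numbered 1 lie apart from the rest for the 5 members and for the second Psme3 probe set, but not for the other Psmf1 probe sets or the first Psme3 one.

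Core and regulatory particle messages varied less across the 6 arrays than the median gene, and the activators, inhibitor and chaperones varied more. The median SD of log2 intensity was 0.12 for the core, 0.14 for the regulatory particle and 0.29 for the activators, inhibitor and chaperones, against 0.20 for all genes. Highest and lowest array differed by less than 1.5-fold in 34 of 44 members (77.3%) and in 56.8% of all genes. Brightness goes with this measure: among members averaging 1000 or more the share was 90.6%, against 69.9% of all genes as bright. Among the 12 members under 1000 it was 41.7%, against 49.8% of all genes as dim, and the median SD was 0.27 for these members and 0.22 for those genes. The widest ratio of highest to lowest among the members was 1.95, for the dim Psmb9.

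Other genes of the pathway were read from a list of 45, of which 29 were kept. None passed the treatment test, and the median FLX minus VEH difference was -0.0065. Between the arrays numbered 1 and the rest, 4 of the 29 passed, where 12.8% of all genes did, so the count was near the background. Of the 4, 3 were higher and 1 lower (5.92% and 6.86% of all genes). Pomp, which matures the core with the Psmg chaperones, had 6498 and 5555 on arrays numbered 1, against 3820 and 3967 on the other FLX and 3795 and 4779 on the other VEH arrays, 0.56 ± 0.15 (adjusted p = 0.0432). It lay above all other arrays, as the Psmg genes did. B2m, the interferon-induced light chain of class I molecules, had 2101 and 1888 against 1260 and 1158 on FLX and 1086 and 1291 on VEH arrays, 0.74 ± 0.13 (adjusted p = 0.0113). The class I heavy chains H2-K1 and H2-D1 differed by 0.034 and 0.080. Nfe2l3, a relative of the proteasome activator Nfe2l1, had 80.1 and 54.1 on arrays numbered 1. The other arrays had 42.0 and 29.0 in FLX and 35.0 and 19.3 in VEH. The difference was 1.13 ± 0.25 (adjusted p = 0.0252), and most of its values were below 50. It was kept through its FLX mean of 50.4, which rested on FLX array 1, as its VEH mean was 36.1. The filter thus favoured this call, which is among the 3 higher ones. Vcp, the ATPase that hands unfolded proteins to the proteasome, was lower with 4728 and 4178 against 5747 and 6150 on FLX and 6085 and 6741 on VEH arrays, -0.47 ± 0.13 (adjusted p = 0.0468).

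Nfe2l1 and Nfe2l2, transcription factors known to drive proteasome genes, did not pass. Nfe2l1 had 529 and 539 on arrays numbered 1, against 612 and 720 on the other FLX and 616 and 763 on the other VEH arrays, -0.34 ± 0.14 (adjusted p = 0.143). Both arrays numbered 1 lay below the rest. Nfe2l2 had a difference of -0.055 ± 0.20. Adrm1, a ubiquitin receptor of the base, was not analysed here.

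Between the arrays numbered 1 and the rest, 1 of 10 astrocyte, 1 of 9 oligodendrocyte and 1 of 3 oligodendrocyte precursor markers passed the test. They were lower. No interneuron, microglia or vessel marker passed, where 12.8% of all genes did. Slc1a2 of astrocytes differed by -0.88 (adjusted p = 0.0274), Sox10 of oligodendrocytes by -0.90 (adjusted p = 0.0424) and Cspg4 of their precursors by -0.96 (adjusted p = 0.00355). Others of these lists lay higher without passing, among them Aqp4 of astrocytes by 0.71 and Cldn11 and Mog of oligodendrocytes by 0.92 and 0.74. The difference was positive for 6 of the 10 astrocyte, 2 of the 9 oligodendrocyte and 1 of the 3 precursor markers. Of 10 microglia and macrophage markers 7 were kept, 6 of them higher on arrays numbered 1 with a median log2 difference of 0.50, and their summed intensity was 2792 to 3259 there, against 1248 to 2926 on the other 4, while Tyrobp and P2ry12 stayed below 50 on all. None of the 7 passed the test. The 10 astrocyte markers had a median of 0.095 and sums of 25599 to 27927 against 18682 to 33076, and the 9 kept oligodendrocyte markers one of -0.11 and sums of 28859 to 29033 against 21060 to 38921. Interneuron and vessel markers had medians of 0.15 and 0.19, and layer 5 markers 0.15. The 13 kept layer 5 markers were divided: both arrays numbered 1 lay above the rest in 4 and below in 3. The shares over all genes were 24.4% and 19.9%. Among the 4 kept markers of excitatory neurons, the class that holds the labelled cells, the vesicular glutamate transporter gene Slc17a7 was lower, with 953 and 663 on arrays numbered 1, against 1999 and 1438 on the other FLX and 1551 and 1895 on the other VEH arrays (-1.10 ± 0.19, adjusted p = 0.0113). The other 3 did not pass, with differences of -0.026 for Camk2a, -0.028 for Nrgn and 0.27 for Neurod6. The part of other cells in the proteasome differences was not tested.

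RefSeq promoter windows were matched for 37 of the 44 members, in 39 windows; those of Psmd3, Psmd7 and Psmg2 are among the 7 without one. In the 250 bases before the start, on either strand, the antioxidant response element core TGACNNNGC, to which Nfe2l1 and Nfe2l2 bind, was found in 5 member windows (12.8%) and in 10.2% of all 32851 windows. The match in the Psmb5 window begins 47 bases before the start, and there was none in those of Psme1 and Psmf1. The CCAAT box was found in 33.3% of member and 33.8% of all windows, the Sp1 box GGGCGG in 53.8% and 32.7%, and the STAT element TTCNNNGAA in 2.56% and 7.02%. The Psme1 window holds 1 Sp1 box. The cAMP response element TGACGTCA was in 0 member windows and in 1.55% of all. These motifs can overlap, and a match says only that the letters are there.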

How the data were processed

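The values the authors deposited are linear intensities, 1 for each probe set on each array. Per the submitters' processing notes they come from GCRMA, which corrects background from probe sequence and normalizes between arrays; no version is stated in the sources used here. Of 45101 probe sets, 64 controls were left out and 19073 kept for a group mean of 50 or more in FLX or VEH. Names came from the platform annotation, with 34945 probe sets of 1 symbol, 932 of several, left unnamed (Psme2 among them), and 9160 not listed. Tests were two-sided and run on log2 intensities with limma 3.58.1 under R 4.3.3 (lmFit, eBayes), and Benjamini-Hochberg adjusted p-values over all 19073 were read at 0.05. The code was tested on simulated data.

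The FLX minus VEH fit had no block, and the fit for the arrays numbered 1 had a treatment term. Deviations from the group means correlated between same-numbered arrays at 0.74, 0.60 and 0.50 for numbers 1, 2 and 3. By these values same-numbered arrays go together, though no label states a pairing. Without a block, differences between the numbers enter the spread behind the SEs, intervals and p-values of FLX minus VEH. In limma 0.591% of genes had an unadjusted p under 0.05 without the block and 3.41% with it. The highest correlation of log2 values between 2 arrays was 0.994 and the smallest SD of their difference 0.23, and no array repeated another.

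Values on every array are given for catalytic and inducible subunits, activators, inhibitor, Psmd14, assembly chaperones, called members, the 4 core and 4 regulatory genes furthest from 0 by number, and the 3 highest and 3 lowest by treatment. The values of other genes come from a list of the pathway and of cell type markers. Members and lists were chosen with earlier results of these data known. Alternatives covered scaling, filters, low values, the choice of probe set, moderation, left-out arrays and the block.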

Additional observations from a re-analysis of the deposited data

Results flagged for a closer look

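Among the 4 arrays not numbered 1, each of the 44 members was examined for a single array far from the other 3 on the log2 scale, and 2 were found. Chance alone gives such a gap in about 1 of 20 groups. For Psmb10, VEH array 3 lay highest at 2230, and its gap to the nearest array was 0.845 of the range. For Psmf1, VEH array 2 lay lowest at 962, with a gap of 0.830 of the range. Groups of 3 arrays were not examined.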

How the results depend on the processing

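In limma, 0 of the 44 members passed in the FLX minus VEH comparison under any of 19 alternatives, the replicate block among them, and 0 in the interaction under 7; with the block, 0 members also had an unadjusted p under 0.05. The core median of FLX minus VEH stayed between -0.075 and 0.023 and that of the regulatory particle between -0.073 and 0.0043. Leaving out arrays not numbered 1 in the interaction was chosen after seeing the data, and leaving out arrays numbered 1 could not be fitted there. For the arrays numbered 1, the 3 members called higher became 5 with an intensity trend, 2 under quantile normalization, 2 without a filter and 0 to 6 with 1 array left out, most without VEH array 3. The 2 called lower became 1 without a filter, 1 with plain probe sets preferred, 1 in the fit with the replicate block against number 2, and 0 to 2 with 1 array left out. The core median was 0.098 and that of the regulatory particle 0.045 under quantile normalization. The core median was 0.085 against number 2 in the block fit and 0.080 to 0.18 with 1 array left out, and that of the regulatory particle 0.14 against number 3 and 0.049 to 0.14. With all kept probe sets averaged, Psme3 was -0.75 (adjusted p = 0.0135) and Psme4 -0.16. With plain probe sets preferred, Psmb4 was -0.0091 and Psmf1 0.028 on arrays numbered 1, and -0.12 and -0.083 for FLX minus VEH. Under quantile normalization Psmb5 was -0.016, and against number 3 in the block fit Psme3 was -0.088. With 1 array left out, Psmb2 ranged from -0.18 to 0.75, Psmb5 from -0.0086 to 0.062 and Psme3 from -0.12 to 0.17, and Psmf1 for FLX minus VEH, pairs left out included, from -0.067 to 0.27. Psmg3 passed in 5 alternatives of 18, with adjusted p from 0.0325 to 0.425 over all. Psmb4 passed with an intensity trend (0.0121), Psmb9, Psmd10 and Psmg4 without VEH array 3 (0.0141, 0.0348 and 0.0273), Psmg4 in the block fit against number 2 (0.0342) and Psme4 in that against number 3 (0.0369). Fewer arrays are the construction of the left-out fits; for the other changes the cause was not tested. The number of arrays limits the precision throughout.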
